A study of Homo sapiens with 6 samples.

Results

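CYYR1, PLEKHS1, MAGI2 and CDH6 are 4 human genes that lie beside some of the strongest NRF2 sites found in both CDDO-Im and vehicle libraries of HMC3, an established human microglial cell line. They are 4 of the 19974 protein-coding genes of the RefSeq annotation on chromosomes 1 to 22 and X. The genes were chosen by the lowest fold enrichment over the 4 libraries: each is nearest to a region that all 4 peak lists hold and whose lowest value is high. For that reason the levels at these regions are given as a description and carry no test. Chromatin bound by NRF2 was immunoprecipitated and sequenced (ChIP-seq) in 2 libraries of CDDO-Im, a triterpenoid that activates NRF2, used at 30 nM for 4 h, and in 2 vehicle libraries. The labels repeat 1 treatment text for all samples, so the groups follow the sample titles, and the vehicle itself is not named. Separate cultures are not stated for the replicates, so their spread may be technical. All 29 peaks with a summit inside a gene or within 150 kb of either end were used, 8 and 9 in CDDO-Im 1 and 2 and 7 and 5 in vehicle 1 and 2.

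NRF2 is a transcription factor that the adaptor KEAP1 holds at a low level by sending it for degradation. Electrophiles such as CDDO-Im modify KEAP1, and NRF2 then gathers in the nucleus, pairs with a small MAF protein and binds the antioxidant response element, whose core is TGACNNNGC. The element overlaps the site of AP-1, TGACTCA, and the repressor BACH1 uses the same element. CYYR1 encodes a small cysteine- and tyrosine-rich membrane protein of little known function. PLEKHS1 encodes a protein with a pleckstrin homology domain, a fold that often binds membrane lipids. MAGI2 encodes a membrane scaffold that works at synapses and at the filtration barrier of the kidney. CDH6 encodes a type II classical cadherin, a calcium-dependent cell adhesion molecule known from kidney. None of these is a textbook antioxidant gene.

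The 4 leading regions, the strongest of each gene's surroundings, took places 2 (CYYR1), 5 (PLEKHS1), 7 (MAGI2) and 10 (CDH6) by lowest fold enrichment among the 230 regions listed in all 4 libraries. This ranking leaves out dense megabases, which hold more than 20 joined regions each. The lowest fold enrichment was 21.98 at CYYR1, 16.0 at PLEKHS1, 14.3 at MAGI2 and 13.4 at CDH6. The next region below CDH6, inside MED20, had 13.2, and the median of the 230 regions was 6.79. The first place belonged to a region near HMOX1, the heme oxygenase gene, with 28.1.

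The CYYR1 region is the one whose sequence is held by the RefSeq promoter table, because its summits fall at a start site of the long noncoding RNA gene CYYR1-AS1. The promoter table covers 250 bases before to 50 after a start. The sequence below is chr21:26405693-26405992 on the plus strand of GRCh38.p14, from RefSeq, with the antioxidant response element in capitals. It is shown because all 4 NRF2 summits lie in it. The promoter of CYYR1 itself, chr21:26573237-26573536 on the minus strand, is shown beside it because no library listed a peak there.
CYYR1-AS1 internal start: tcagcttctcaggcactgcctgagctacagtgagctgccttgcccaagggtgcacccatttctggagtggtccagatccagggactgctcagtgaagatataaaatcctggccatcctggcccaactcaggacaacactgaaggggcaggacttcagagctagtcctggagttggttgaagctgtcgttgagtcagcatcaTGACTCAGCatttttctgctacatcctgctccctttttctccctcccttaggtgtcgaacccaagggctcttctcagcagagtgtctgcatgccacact
CYYR1 start: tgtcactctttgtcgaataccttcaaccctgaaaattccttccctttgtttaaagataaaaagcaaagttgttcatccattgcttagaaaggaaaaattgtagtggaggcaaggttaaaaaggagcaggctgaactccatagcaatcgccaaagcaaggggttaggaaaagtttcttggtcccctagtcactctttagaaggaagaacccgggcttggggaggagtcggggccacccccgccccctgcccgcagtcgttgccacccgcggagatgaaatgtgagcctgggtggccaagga

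The element TGACTCAGC lay at bases 202 to 210 of the CYYR1-AS1 sequence, on its plus strand, and began 49 bases before the start site. Its centre was 9 bp from the summit of CDDO-Im 1, at the summit of CDDO-Im 2, and 8 and 5 bp from the summits of vehicle 1 and 2. The summits of all 4 libraries thus fell within 9 bp of the element's centre, whichever treatment the cells had. TGACNNNGC, searched on both strands, was held by 13.4% of the 34961 promoters of this length, and the full TGACTCAGC by 0.563%. The AP-1 site TGACTCA, which makes up the first bases of TGACTCAGC, was held by 4.92%. A second TGACTCA, on the minus strand, lay at bases 189 to 195 of the CYYR1-AS1 sequence. The upstream start of CYYR1-AS1 and the promoters of CYYR1, PLEKHS1 (2 starts) and MAGI2 held none of these letters and no listed peak. Promoter sequences were at hand for 3 of the 4 genes, and CDH6 was not among them. Of the 230 regions listed in all 4 libraries, 6 had their summit in a RefSeq promoter of this length. TGACNNNGC was held by 5 of these 6 promoters, TGACTCAGC by 4 and the AP-1 site TGACTCA also by 4. Each of these counts includes the CYYR1-AS1 promoter shown above. A match of letters is a description and does not show which factor was bound.

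In the CYYR1 surroundings the leading region spanned chr21:26405641-26406168. It lay 60.3 kb outside CYYR1, beyond the end at which transcription of this minus-strand gene stops and 167 kb from its start, but inside CYYR1-AS1, a gene of 176 kb that overlaps CYYR1. At its summit CDDO-Im 1 and 2 had 122 and 160 tags, and vehicle 1 and 2 had 34 and 46 tags. Divided by each library's genome-wide background, a stand-in for depth, these were 368 and 435 with CDDO-Im, against 108 and 146 with vehicle. Each CDDO-Im library thus exceeded each vehicle library. The CDDO-Im level was 3.19 times the vehicle level (log2 difference 1.67, within-group SD 0.17 for CDDO-Im and 0.31 for vehicle, n = 2 each). From the summed tags the ratio was 3.18, with an exact 95% interval of 2.47 to 4.13 that covers counting error only. In bulk chromatin, more bound cells and more binding per cell cannot be told apart.

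The deposited statistics of the CYYR1 region were among the highest of each list. The fold enrichment was 78.1 and 63.8 in CDDO-Im 1 and 2, against 23.5 and 21.98 in vehicle 1 and 2. These stood at places 2 of 3882 and 20 of 12244 peaks in the CDDO-Im lists, and 4 of 4098 and 7 of 7308 in the vehicle lists. The −log10 p was 235 and 258 with CDDO-Im, against 51.1 and 57.2 with vehicle. The −log10 q was 227 and 251 with CDDO-Im, against 45.1 and 50.8 with vehicle. No library listed another peak inside CYYR1 or within 150 kb of it, and the nearest other region of any library lay 328 kb from the summit. Over the 230 regions the median of that distance was 95.7 kb.

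The PLEKHS1 region, chr10:113788552-113789119, lay 5.42 kb beyond the end of PLEKHS1, a plus-strand gene of 31.7 kb, and 37.2 kb from its start. CDDO-Im 1 and 2 had 88 and 130 tags there, and vehicle 1 and 2 had 33 and 26. Over background these were 265 and 354 with CDDO-Im, against 105 and 82.6 with vehicle, and the groups did not overlap. The ratio of CDDO-Im to vehicle was 3.30 (log2 difference 1.72, SD 0.29 for CDDO-Im and 0.24 for vehicle, n = 2 each), and 3.33 from summed tags with an exact 95% interval of 2.49 to 4.52. The fold enrichment was 65.7 and 74.3 with CDDO-Im, against 25.4 and 16.0 with vehicle. The −log10 q was 169 and 231 with CDDO-Im, against 48.5 and 27.2 with vehicle, and the −log10 p was 176 and 238, against 54.6 and 32.8. In vehicle 1 this was the second highest peak by fold, place 2 of 4098. It was place 30 in vehicle 2, and places 5 and 10 in CDDO-Im 1 and 2.

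No other peak was listed in any library inside PLEKHS1 or within 150 kb of it, and the nearest other region lay 203 kb from the summit. Of other protein-coding genes that overlap these surroundings, DCLRE1A, a nuclease of DNA crosslink repair, lies 45.9 kb from the summit on the side away from PLEKHS1, followed by NHLRC2 at 65.8 kb. NRAP, a muscle anchoring protein, lies 125 kb away on the side of PLEKHS1. The PLEKHS1 region is therefore also the region of all 4 libraries within 150 kb of each of these genes.

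The MAGI2 region, chr7:79281406-79282001, was the one leading region inside its gene, a minus-strand gene of 1437 kb. It lay 172 kb from the start of MAGI2. Of the 230 regions listed in all 4 libraries, 110 (47.8%) lay inside a protein-coding gene. At the MAGI2 region CDDO-Im 1 and 2 had 77 and 105 tags, and vehicle 1 and 2 had 21 and 23. Over background these were 232 and 286 with CDDO-Im, against 66.5 and 73.1 with vehicle, again without overlap. The ratio was 3.69 (log2 difference 1.88, SD 0.21 for CDDO-Im and 0.10 for vehicle, n = 2 each), and 3.73 from summed tags with an exact 95% interval of 2.67 to 5.31. The fold enrichment was 56.2 and 60.1 with CDDO-Im, against 16.1 and 14.3 with vehicle. The −log10 q was 141 and 176 with CDDO-Im, against 25.5 and 22.7 with vehicle, and the −log10 p was 147 and 183, against 30.8 and 28.0. The region was place 8 and 23 in the CDDO-Im lists and place 11 and 56 in the vehicle lists.

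The CDH6 region, chr5:31149053-31149544, lay 44.4 kb outside CDH6, a gene of 135 kb, on the side of its lower coordinate. CDDO-Im 1 and 2 had 66 and 93 tags there, and vehicle 1 and 2 had 25 and 19. Over background these were 199 and 253 with CDDO-Im, against 79.2 and 60.4 with vehicle, without overlap. The ratio was 3.24 (log2 difference 1.70, SD 0.25 for CDDO-Im and 0.28 for vehicle, n = 2 each), and 3.26 from summed tags with an exact 95% interval of 2.32 to 4.66. The fold enrichment was 34.2 and 62.3 with CDDO-Im, against 13.4 and 13.7 with vehicle. The −log10 q was 90.2 and 168 with CDDO-Im, against 22.5 and 20.1 with vehicle, and the −log10 p was 96.2 and 174, against 27.8 and 25.4. The region was place 33 and 22 in the CDDO-Im lists and place 18 and 59 in the vehicle lists. DROSHA, the nuclease that starts microRNA processing, is the other protein-coding gene in these surroundings and lies 251 kb from the summit.

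**Figure D1:**
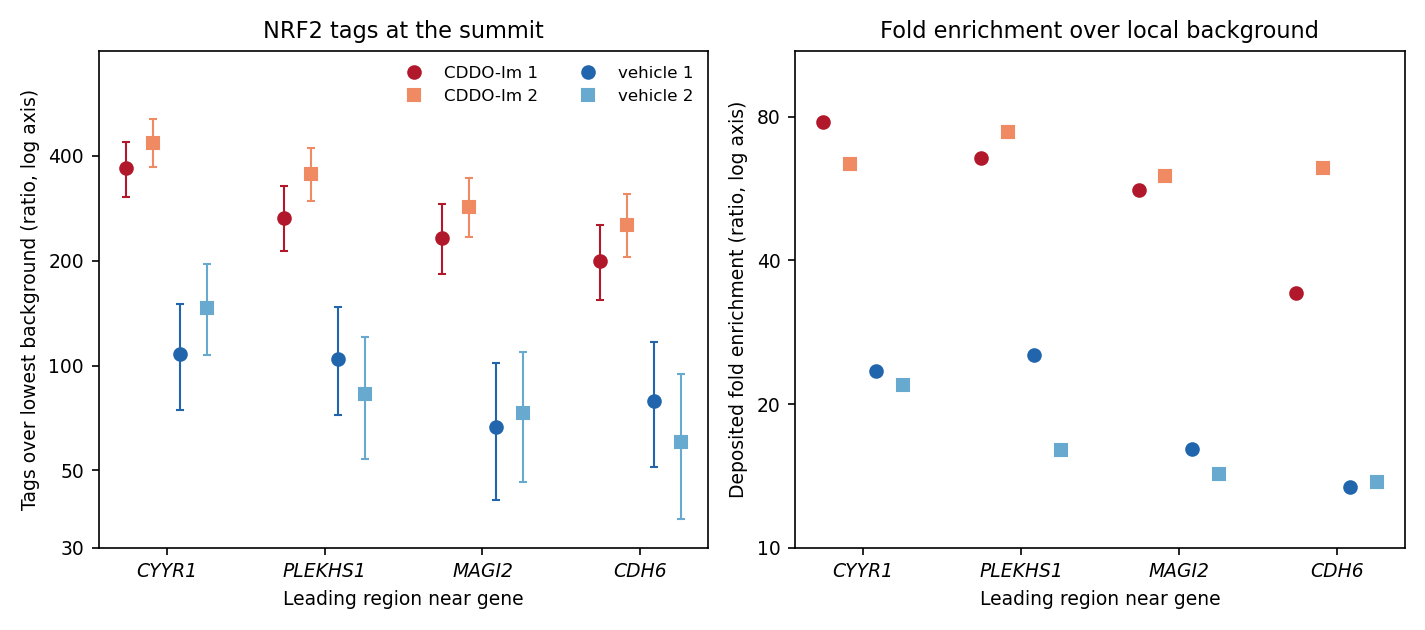
NRF2 level at the leading region of each gene, with 1 point per library (CDDO-Im red, vehicle blue). The left panel shows tags over the library's lowest background on a log axis with exact 95% Poisson intervals of the tags, and the right panel shows the deposited fold enrichment on a log axis. At every gene both CDDO-Im points lie above both vehicle points, and in the right panel CDDO-Im 1 is the higher CDDO-Im library at CYYR1 (78.1 against 63.8) but the lower at CDH6 (34.2 against 62.3).

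At some genes the order of equally treated libraries depended on the scale. By tags over background, CDDO-Im 2 was 1.18 times CDDO-Im 1 at CYYR1, 1.33 at PLEKHS1, 1.23 at MAGI2 and 1.27 at CDH6, where the median of the 230 regions was 1.40. By fold enrichment the order turned at CYYR1, where CDDO-Im 2 was 0.817 times CDDO-Im 1, and was kept at PLEKHS1 (1.13), MAGI2 (1.07) and CDH6 (1.82). The fold divides by a local background, which differed between libraries by replicate number more than by treatment. At CDH6 the local background was 2.89 times the lowest background in CDDO-Im 1 and 2.96 times in vehicle 1, but 1.38 times in CDDO-Im 2 and 1.45 times in vehicle 2. At CYYR1 it was 1.73 times in CDDO-Im 1 and 1.55 times in vehicle 1, but 4.15 times in CDDO-Im 2 and 3.62 times in vehicle 2. At PLEKHS1 and MAGI2 it was between 1.07 and 1.17 times in the libraries numbered 1 and between 2.08 and 2.17 times in those numbered 2. Across the 230 regions, the local backgrounds of equally numbered libraries had a Pearson r of 0.994 for number 1 and 0.995 for number 2, against 0.952 to 0.956 for the other pairs. This r is across regions, which are not independent replicates. The sources used here do not say whether equally numbered libraries were called against a shared control. The vehicle libraries did not share an order, with vehicle 2 over vehicle 1 at 1.36 for CYYR1, 1.10 for MAGI2, 0.790 for PLEKHS1 and 0.762 for CDH6 by tags over background. By fold enrichment these were 0.935 for CYYR1, 0.884 for MAGI2, 0.631 for PLEKHS1 and 1.02 for CDH6, so the vehicle order turned at 3 of the 4 genes.

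All 4 leading regions were higher in both CDDO-Im libraries, and so were 200 of the 230 regions listed in all 4 libraries, a background of 87.0%. With dense megabases included, this share was 47.8%. The leading regions did not stand apart in the size of this difference. Their ratios of CDDO-Im to vehicle, 3.19 to 3.69, sat around the median of 3.20 of the other 226 regions, whose quartiles were 2.33 and 3.90. Of the 230 regions, 111 had a lower ratio than CYYR1, 123 than PLEKHS1, 117 than CDH6 and 164 than MAGI2. The intervals of the 4 ratios overlapped, and differences among the genes in their ratio were not tested. Of regions ranked near them, the one inside NDUFS7 at place 4, a mitochondrial complex I gene, had 34 and 32 tags with CDDO-Im, against 33 and 30 with vehicle, a ratio of 0.946. The opposite order, with each CDDO-Im library below each vehicle library, was found in 9 regions, 3.91% of the 230.

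**Figure D2:**
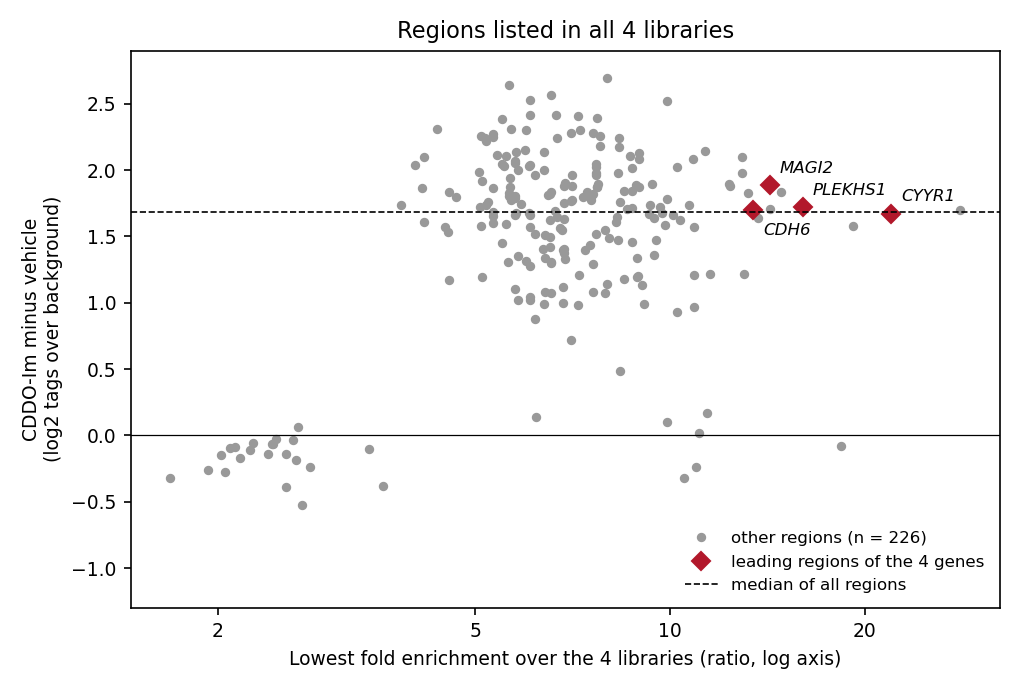
Each point is 1 of the 230 regions held by all 4 lists, dense megabases left out. The horizontal axis is the lowest fold enrichment over the libraries (log axis), the vertical axis the mean log2 tags over background of CDDO-Im minus vehicle, and the dashed line is the median of all 230. The 4 leading regions (diamonds) lie to the right, between 13.4 and 21.98, and at differences of 1.67 to 1.88, close to the median of 1.68.

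The summits of the leading regions stayed in place between treatments. Over the 4 libraries they lay within 17 bp of each other at CYYR1, 14 bp at PLEKHS1, 40 bp at MAGI2 and 35 bp at CDH6. The median spread over the 230 regions was 37 bp, with quartiles of 21 and 54.8 bp. Summit position itself was not used to choose the genes. However, each region had to be made of overlapping peaks of all 4 libraries, which limits how far apart its summits can lie. These spreads were not tested against tag number. At CYYR1, listed peaks were 474 and 528 bp wide in CDDO-Im 1 and 2, against 361 and 324 bp in vehicle 1 and 2. At PLEKHS1 they were 478 and 568 bp with CDDO-Im, against 402 and 301 bp with vehicle, and at CDH6 447 and 476 bp, against 341 and 271 bp. MAGI2 was the exception, with 384 bp in both CDDO-Im libraries, against 580 bp in vehicle 1 and 256 bp in vehicle 2. Both CDDO-Im peaks were thus wider than both vehicle peaks at 3 of the 4 regions, where the background over the 230 regions was 83.9%.

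**Figure D3:**
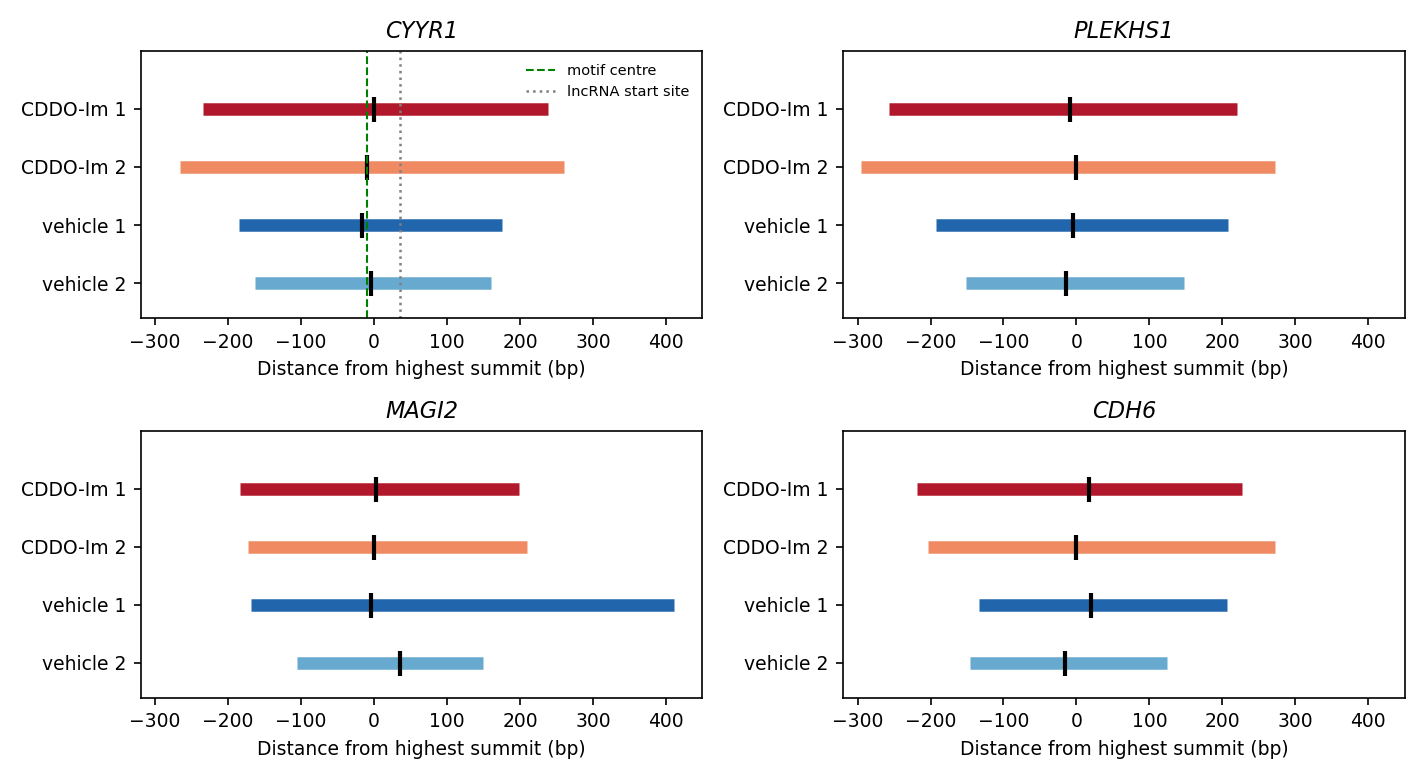
Extent of the listed peak (bar) and its summit (black tick) in each library, as distance in bp from the summit of the library with the highest fold. The CYYR1 panel also marks the centre of TGACTCAGC and the internal start site of CYYR1-AS1, 36 bp from the zero point. Summits lie within 40 bp at every gene, and the vehicle 1 peak at MAGI2 (580 bp) is the longest.

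The surroundings spanned 1737 kb at MAGI2, 435 kb at CDH6, 407 kb at CYYR1 and 332 kb at PLEKHS1, and peak numbers were not divided by length. Peaks other than the leading regions had 5 to 19 tags, and all of them lay at MAGI2 (10 peaks) and CDH6 (3 peaks). They numbered 4 and 5 in CDDO-Im 1 and 2, against 3 and 1 in vehicle 1 and 2, a log2 difference of 0.95 after adding 1 to each number. The exact two-sided permutation test gave p = 0.33 (n = 2 and 2), the smallest p this design allows, so the test cannot pass a threshold of 0.05. Both CDDO-Im libraries had more such peaks than both vehicle libraries within 150 kb, but not within 50 kb, where CDDO-Im 1 and 2 had 3 and 3, against 3 and 1 in vehicle 1 and 2 (log2 difference 0.5, exact permutation p = 1). Within 150 kb the difference was 0.45 without vehicle 2 and 1.45 without vehicle 1, and it turned to -1 when only the 1216 peaks of highest fold in each library outside dense megabases were used. The CDDO-Im libraries listed more peaks there, 3249 and 4795, against 1216 and 1276 in the vehicle libraries.

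Joined over libraries, the 29 peaks made 15 regions. All 4 regions of all libraries were the leading ones, against a background of 3.11% of the 7386 regions outside dense megabases, and that count follows from how the genes were chosen. Another 2 regions were listed in both CDDO-Im and no vehicle library, where 19.3% of all regions were of this kind. The remaining 9 were each listed in 1 library, 5 in a CDDO-Im and 4 in a vehicle library, classes that held 50.3% and 19.8% of all regions. No region was listed in both vehicle libraries without CDDO-Im, a class of 0.0542% of all regions.

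At MAGI2, 10 regions lay inside the gene and none in the 150 kb on either side. The region listed in both CDDO-Im libraries, chr7:78417515-78417849, lay 864 kb from the leading summit, within the long noncoding RNA gene LOC124901683. It had 18 and 19 tags in CDDO-Im 1 and 2 and a fold enrichment of 12.1 and 7.92 (places 687 of 3882 and 3307 of 12244), and neither vehicle library listed it. The other MAGI2 regions, each from 1 library, had 5 or 10 tags where CDDO-Im 1 listed them, 5 or 7 tags for CDDO-Im 2, between 6 and 8 for vehicle 1 (3 regions), and 7 for vehicle 2. For comparison, the median listed peak outside dense megabases had 10 and 11 tags in CDDO-Im 1 and 2, against 6 and 7 in vehicle 1 and 2. At such counts a site that a list lacks cannot be read as unbound.

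At CDH6, the region listed in both CDDO-Im libraries, chr5:31116642-31116890, lay 32.4 kb from the leading summit and farther from the gene. It had 8 and 9 tags in CDDO-Im 1 and 2 and a fold enrichment of 6.38 and 6.63, with no vehicle peak. A region 44.3 kb from the leading summit was listed in CDDO-Im 2 alone with 11 tags. No peak lay inside CDH6 in any library.

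**Figure D4:**
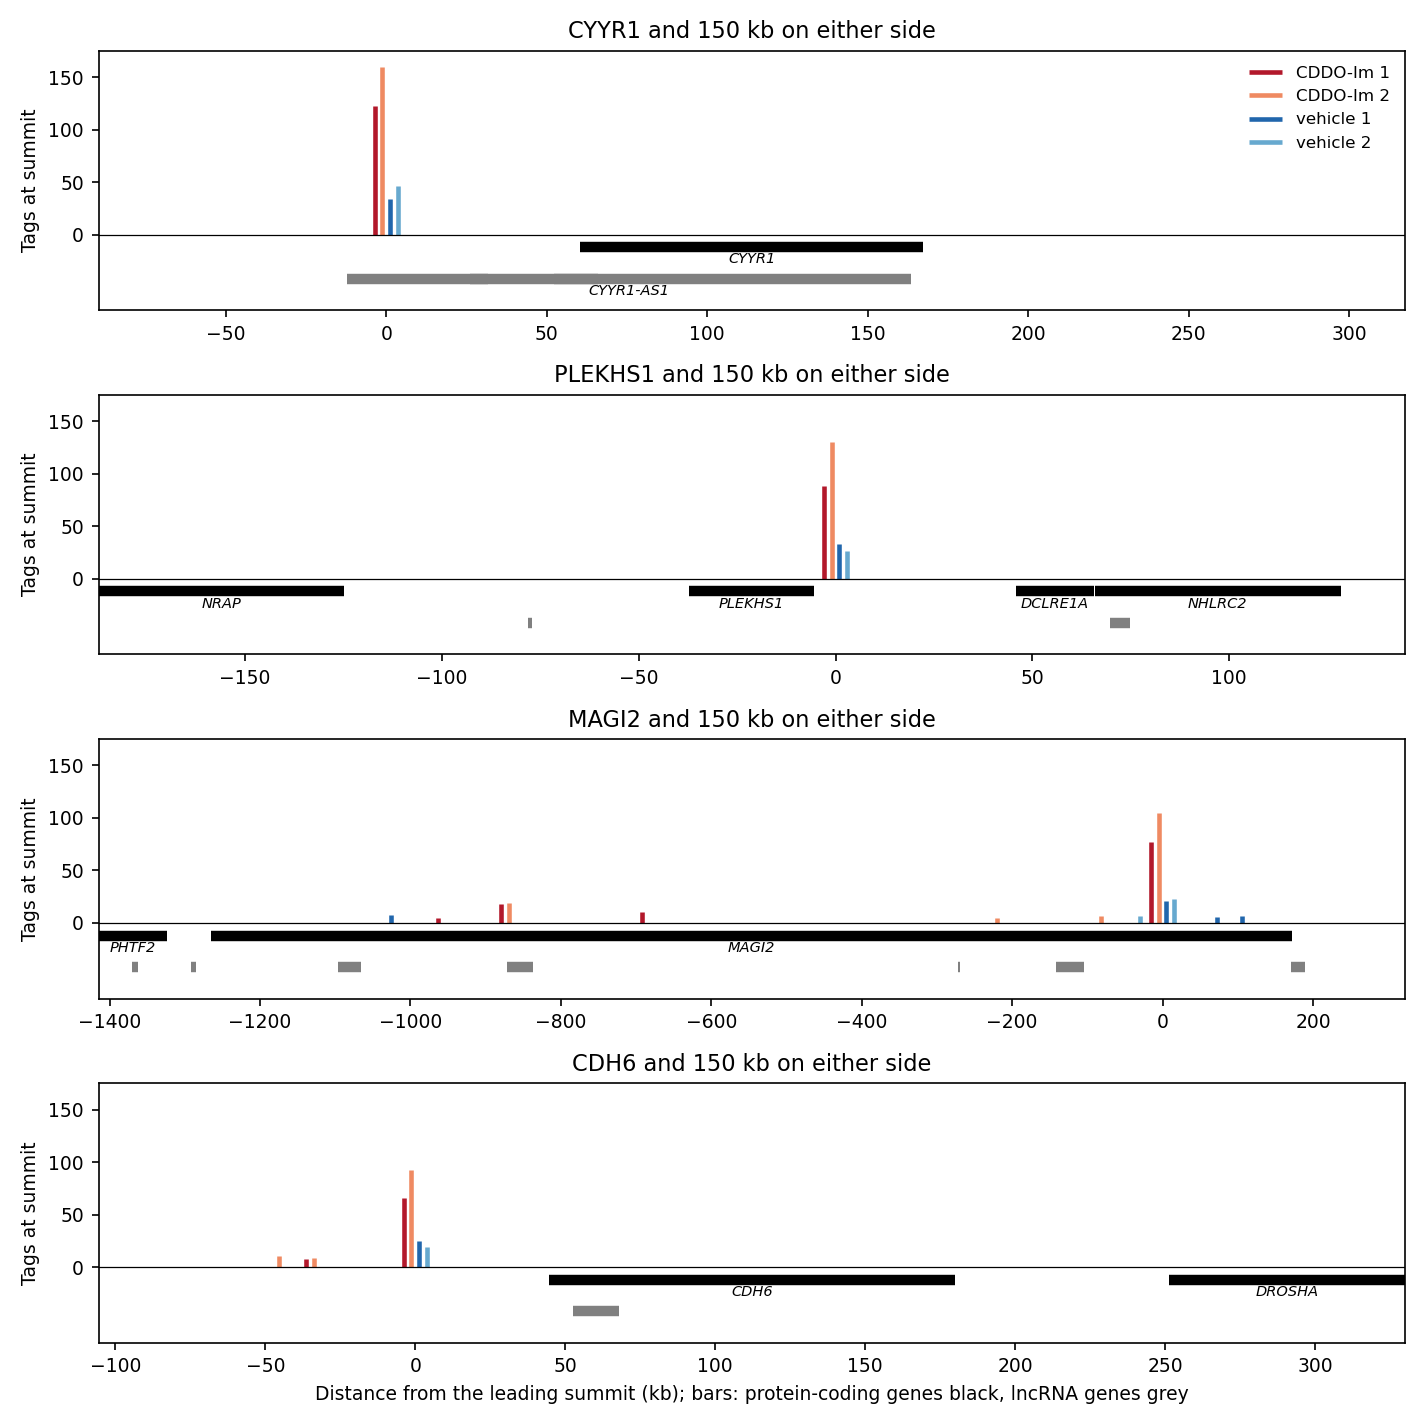
Tags at the summit of every listed peak in the surroundings of each gene, against distance from the leading summit in kb, with 1 color per library. Bars of libraries at 1 site are drawn side by side, the protein-coding genes reported are black and long noncoding RNA genes grey. CYYR1 and PLEKHS1 have a single site of 26 to 160 tags, while MAGI2 and CDH6 also have sites of 5 to 19 tags.

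Some relatives of CDH6, MAGI2 and PLEKHS1 were examined for a region of all 4 libraries in the gene or within 150 kb, a position that 4.36% of all protein-coding genes had. Among 12 other type II cadherins none had one, although CDH9 had 5 and 4 peaks in CDDO-Im 1 and 2, against 1 and 0 in vehicle 1 and 2. Of 6 membrane-associated guanylate kinase scaffolds looked at (MAGI1, MAGI3, DLG1, DLG2, DLG3 and DLG4), 1 had one. This was DLG2, a postsynaptic scaffold gene, whose region lay 37.0 kb outside the gene, nearest to CREBZF, and had 29 and 30 tags with CDDO-Im, against 7 and 8 with vehicle. MAGI1, the close relative of MAGI2, had no peak in any library, and MAGI3 had 2 and 1 in CDDO-Im 1 and 2, against 0 and 1 in vehicle 1 and 2. Of 6 genes of the large pleckstrin homology family (PLEKHA1, PLEKHA2, PLEKHA4, PLEKHA5, PLEKHA6 and PLEKHA7), none had a region of all 4 libraries. These counts are small and their difference from the share over all genes was not tested, and no relatives of CYYR1 were examined.

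Of 16 known NRF2 target genes, 5 had a region of all 4 libraries within the same distance: HMOX1, NQO1, FTH1, SLC48A1 and SQSTM1. The share over all protein-coding genes was 4.36%, and the difference from it was not tested. All 4 leading regions were below HMOX1 (28.1) in lowest fold enrichment but above the strongest such region of NQO1 (8.33), the quinone reductase gene, FTH1 (8.33), the ferritin heavy chain gene, SLC48A1 (6.54), a heme transporter gene, and SQSTM1 (4.16), an autophagy receptor gene. The 4 genes were chosen by this same measure, so their high places follow from the choice. In CDDO-Im 1 and 2, NQO1 had 68 and 97 tags and FTH1 49 and 104, against 66 and 93 at CDH6. SLC48A1 had 22 and 44 and SQSTM1 23 and 53. In vehicle 1 and 2, NQO1 had 12 and 20 tags and FTH1 12 and 17, against 25 and 19 at CDH6. The log2 difference of CDDO-Im to vehicle was 2.24 at NQO1, 2.17 at FTH1 and 2.10 at SQSTM1. It was 1.70 at the stronger HMOX1 region and 1.42 at SLC48A1, against 1.67 to 1.88 at the leading regions. These differences were not compared by a test. The other 11 targets had no region of all 4 libraries, but each had a listed peak in at least 1 CDDO-Im library within this distance. Among them were GCLC and TXNRD1 of glutathione and thioredoxin metabolism, and GCLM, the regulatory subunit gene of glutathione synthesis, which had 1 peak in each of the 4 libraries within this distance that did not all join into 1 region. Of 5 other protein-coding genes in the surroundings of the 4 genes, DCLRE1A, NHLRC2 and NRAP had one, which is the PLEKHS1 region itself, and DROSHA and PHTF2 had none.

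The levels of the CYYR1 region across the 4 libraries were most like those of the HMOX1 region, at a Euclidean distance of 0.27 in log2 tags over background over 4 libraries. HMOX1 had 114 and 188 tags with CDDO-Im, against 36 and 46 with vehicle. The median distance from CYYR1 to the other 3 genes was 1.51. The 0.27 is the smallest over all regions compared, so it lies below such a median by construction. HMOX1 and CYYR1 also hold places 1 and 2 by the lowest fold enrichment that chose the genes. The PLEKHS1 region was closest to one near an uncharacterised locus (0.33) and then to the one inside MED20 (0.36), a subunit gene of the Mediator complex. The MAGI2 region was close to regions inside ILRUN (0.36) and 28.4 kb from EPS8L3 (0.37). The CDH6 region was closest to one inside HGD (0.45), the gene of an enzyme of tyrosine breakdown, and then to MAGI2 (0.47). This distance counts both the level of a region and its ratio of CDDO-Im to vehicle.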

How the data were processed

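NRF2 ChIP-seq peak lists of 2 CDDO-Im and 2 vehicle libraries of HMC3 were used. The 2 input samples were left out. MACS2 2.2.7.1, BWA 0.7.17 and bcl2fastq 2.15.0 are the tools, and GRCm38 and hg38 the builds, per the submitters' processing notes. The sources used here do not give controls, thresholds or duplicate handling. Coordinates in the lists were read as hg38, on which the gene positions match. Peaks were named by library, so they were listed per library.

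Each peak carries the deposited fold enrichment (a ratio), −log10 p and −log10 q. These are the authors' values, ranked within a list only. They also give a deposited score made from the −log10 q and a summit offset.

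The tags at a summit were worked out from both the fold enrichment and the −log10 p as deposited, with fold equal to (tags + 1)/(local background + 1) and p equal to the Poisson probability of more than that many tags. A whole number of tags was found for 100% of peaks in each library (tolerance 0.001 plus 0.0002 of the value), and a single match was found for 97.7% to 99.4%. On simulated peaks made with the same formulas, tags were recovered for 2000 of 2000, which checks the code and not the formulas. Library totals are not in the lists. Depth was therefore set by the lowest recovered background, which was 0.332 and 0.367 tags in CDDO-Im 1 and 2, and 0.316 and 0.315 in vehicle 1 and 2. The unknown fragment length of the peak calling also enters it. Counting intervals treat tags as independent molecules and cover counting error only.

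On chromosomes 1 to 22 and X, overlapping peaks (1 bp or more) were merged. Megabases with more than 20 joined regions (77 in all) were left out of counts over all regions. Genes came from the RefSeq table of GRCh38.p14 and promoters from its sequence table. No genome was used, so the sequences of the other 3 leading regions are not shown. Peak lists hold no expression values, so the cell type was not checked against markers. Python 3.11.15, numpy 2.4.6, pandas 2.3.3 and scipy 1.17.1 were used.

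The 4 genes and the gene lists were chosen with earlier results of these data known. Named were the 4 genes, regions of their surroundings listed in 2 or more libraries, the genes there, the 2 regions most like each leading one, and list members with a region of all 4 libraries. One gene of these surroundings is not reported here. Regions whose nearest gene is an uncharacterised locus are left unnamed, and the promoter search was added after the data were seen. Alternatives covered the depth measure, window, peak threshold, overlap, dense megabases, MAGI2 left out and each library left out.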

Additional observations from a re-analysis of the deposited data

How the results depend on the processing

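At the leading regions, CDDO-Im stayed above vehicle under the 7 alternatives that could move the value, with log2 differences of 1.45 to 1.89 at CYYR1, 1.51 to 1.93 at PLEKHS1, 1.73 to 2.03 at MAGI2 and 1.5 to 1.89 at CDH6. These ranges include leaving out each library. Summing tags over summits and the block on replicate numbers could not move the value, since each library has 1 peak there and the design is balanced. With −log10 q in place of fold, MAGI2 moved from place 7 to 13 and CDH6 from place 10 to 19. The excess of other peaks with CDDO-Im (0.95) reversed to -1 with equal numbers of top peaks (exact permutation p = 0.667, n = 2 each). Fewer peaks entered that count. Leaving out 1 library gave 0.45 to 1.45, and 50 kb gave 0.5. Without MAGI2 it was 1.29, from 1 and 2 peaks in CDDO-Im 1 and 2, against 0 and 0 in vehicle 1 and 2. The share of regions higher in both CDDO-Im libraries was 47.8% with dense megabases included and 82% with a −log10 q of at least 5. It was 87.2% to 91.2% with 1 library left out, where 1 group had only 1 library and the rule was easier to meet. With a −log10 q of at least 5, the 15 regions became 8 and the scaffold list, MAGI2 included, had 1 gene in place of 2. Within 50 kb, 1 neighbouring gene in place of 3 had a region of all 4 libraries.

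With equal replicate numbers as a block (replicate block), the other-peak difference was 0.95 (exact permutation p = 0.5, n = 2 pairs, the smallest possible). The leading differences (1.67, 1.72, 1.88 and 1.70) cannot move under the block. The SD of the 2 differences between equally numbered libraries was 0.139 at CYYR1, 0.534 at PLEKHS1, 0.116 at MAGI2 and 0.522 at CDH6. Deviations of equally numbered libraries had an r of -0.04 over 230 regions. This r is across regions and cannot show whether equally numbered libraries were paired. The main values were given without pairs. No call existed that a block could change. The unknown library totals and the low counts of the weaker peaks, 5 to 19 tags, limit what can be read from them.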
